A study of Rattus norvegicus with 43 samples.

Results

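The transcripts described here code for the core enzymes and carriers of mitochondrial fatty acid beta-oxidation: Cpt1a, Slc25a20, Cpt2, Acadvl, Acadl, Acadm, Acads, Hadha, Hadhb and Hadh. They were taken by gene symbol from the annotation of the array, which gave 13 probe sets for these 10 genes, out of 8740 probe sets standing for 4736 named genes. Hadha had 3 probe sets, Acadl 2 and each other gene 1. The arrays measured transcripts in 3 organs (liver, lung, mammary gland) of Sprague-Dawley rats, all female and of an outbred strain, that were treated for 7 days starting at 100 days of age. Rats received Targretin (bexarotene, a synthetic ligand of the retinoid X receptors) at 60 mg/kg body weight by gavage, 9-cis-retinoic-acid (9cRA, an isomer of retinoic acid that binds the retinoic acid receptors as well as the retinoid X receptors) at 100 mg/kg diet, or 4-hydroxyphenylretinamide (4HPR, in which retinoic acid is joined as an amide to aminophenol) at 782 mg/kg diet. The comparison rats received diet only. Doses and routes therefore differed between agents, and the labels name no gavage control. Each of the 12 organ and agent groups had 4 arrays, apart from the Targretin groups in all 3 organs, the 4HPR mammary gland and the diet lung, which had 3. Nothing in the labels says that each array is a separate rat, so p-values measure the spread between these arrays, which may be technical.

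Fatty acids reach the mitochondrial matrix through the carnitine shuttle: Cpt1a, the liver form of carnitine palmitoyltransferase and the controlled step, joins them to carnitine at the outer membrane, Slc25a20 carries the acylcarnitine across the inner membrane, and Cpt2 returns the acyl group to coenzyme A. The acyl-CoA dehydrogenases Acadvl, Acadl, Acadm and Acads then start each turn of the cycle on very long, long, medium and short chains, the trifunctional protein of Hadha and Hadhb completes the turn on long chains, and Hadh oxidises the 3-hydroxy intermediates of shorter ones. In liver the acetyl-CoA formed supplies ketone bodies, and many of these genes are known targets of the receptor Ppara, which binds DNA as a partner of the retinoid X receptors.

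All values are MAS5 signals, the linear intensity per probe set that the authors deposited, and differences are of log2(signal + 38.3), where 38.3 is a pseudocount. Within an organ, only probe sets were tested that lay above the 40th percentile of their array on at least 3 arrays, and a probe set passed when its adjusted p was below 0.05. Arrays of lung had median signals of 470.5 to 636.6, those of mammary gland 348.4 to 442.9 and those of liver 266.8 to 390.6, and the number of arrays limits the precision. Marker genes followed the organ labels: 7 measured hepatocyte genes summed to 300465 to 526987 on the liver arrays, 8 lung epithelial genes to 247295 to 466860 on the lung arrays and at most 21089 elsewhere, and 10 mammary epithelial genes to 70982 to 398882 on the mammary arrays, against 13953 to 31150 elsewhere. Transcripts of other organs were also present. The hepatocyte sum reached 99572 on 4HPR lung array 3 and 30969 on diet lung array 2, and the sum of 10 skeletal muscle genes reached 73704 on Targretin mammary array 3. Of the liver arrays 4HPR array 4 lay farthest from its own group, and of the lung arrays Targretin array 2. These 5 arrays are called the arrays that stand apart. The hepatocyte sum was also 46455 to 86899 in diet, 43199 to 88061 in 4HPR and 24925 to 75945 in 9cRA mammary glands. In Targretin mammary glands it was 2320 to 5899. Fits without the 5 arrays keep all diet, 4HPR and 9cRA mammary arrays and their hepatocyte transcripts. In whole organs, fewer cells of a type and less RNA per cell cannot be told apart.

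The first question was what each agent did to the pathway in liver. Under Targretin, genes of the carnitine shuttle, the medium-chain dehydrogenase, the trifunctional protein and the 3-hydroxyacyl step rose. Of 12 probe sets tested in liver, 7 were higher in Targretin livers than in diet livers and 0 lower, where 4.89% of all 6071 probe sets tested were called higher and 6.28% lower. The 7 stood for Cpt2, Slc25a20, Acadm, Hadha (by 2 of its 3 probe sets), Hadhb and Hadh. Cpt1a, Acadvl, Acadl and Acads did not pass. Hadh entered the test through its signals in treated livers, since it was above the 40th percentile on 0 of 4 diet arrays, and without it 6 of 11 probe sets passed. The median log2 difference of the 12 probe sets was 0.61, and that of all probe sets tested was -0.02. Marker genes of other cell types moved with Targretin in liver as well. Of the summed signals of 11 marker lists, 3 lay wholly above diet and 2 wholly below. Of all probe sets tested, 10.6% lay wholly above diet and 14.1% wholly below, though a sum over several genes is not a single probe set. The sum of 5 macrophage genes was 11200 to 14493 in Targretin livers, against 16078 to 20013 in diet livers, and that of 2 erythroid genes 16518 to 31713, against 37792 to 66646. Adipocyte genes summed to 8306 to 9238 in Targretin livers, against 6316 to 7477 in diet livers, 3 brown adipocyte genes to 1159 to 2026, against 541 to 1063, and mammary epithelial genes to 18518 to 22653, against 13953 to 18172. The hepatocyte sum overlapped, at 305579 to 417778 in Targretin livers, against 322686 to 385856 in diet livers, and the part of these transcripts in the liver values was not tested.

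In the carnitine shuttle, the largest difference was at the inner membrane. Cpt2 (chr5:127893450-127911347 in the RefSeq build GRCr8) had signals of 10065, 12811 and 9844 in Targretin livers, against 2751, 3892, 3634 and 3388 in diet livers. Each Targretin liver was above every diet liver, the means being 10906 ± 1653 (SD, n = 3) and 3416 ± 489 (SD, n = 4), a ratio of 3.19. The log2 difference was 1.66 ± 0.21 (SE; adjusted p = 5.0e-05 by limma), and it was 1.54 to 1.73 over 14 other settings, all of which it passed. Slc25a20 (chr8:118243573-118265027), the carnitine-acylcarnitine translocase, had 2449.9, 2960.3 and 2244 in Targretin livers, against 945, 1511, 1732 and 1778 in diet livers, again without overlap. Its means were 2551 ± 369 and 1492 ± 383, and its log2 difference of 0.79 ± 0.23 passed (adjusted p = 0.031), but not without Targretin array 1 (adjusted p = 0.077) or 2 (0.14), without diet array 1 (0.095) or 2 (0.053), or with same-numbered arrays as a block (0.062). Cpt1a (chr1:209993881-210056329) was the most scattered member: 2704, 8737 and 10912 in Targretin livers, against 3709, 6123, 5664 and 2439.9 in diet livers. The lowest Targretin liver lay inside the diet range and the other two above it, and the log2 difference of 0.59 ± 0.48 did not pass (adjusted p = 0.51).

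Among the acyl-CoA dehydrogenases the medium-chain enzyme rose. Acadm (chr2:245518693-245542864) had 16249, 19479 and 18179 in Targretin livers, against 11183, 12468, 13281 and 10015 in diet livers. The groups did not overlap, with means of 17969 ± 1625 and 11737 ± 1437 and a log2 difference of 0.62 ± 0.13 (adjusted p = 0.0040). Acadvl (chr10:55231558-55236786) had 3589.7, 3757 and 4069.5 in Targretin livers, against 3101, 3344, 2658 and 3234 in diet livers, and Acads (chr12:47154259-47163580) had 3085, 3356 and 2815, against 2437, 2361, 2372 and 1953. Both groups of Targretin values lay above all their diet values, yet the log2 differences of 0.30 ± 0.15 for Acadvl and 0.43 ± 0.23 for Acads did not pass (adjusted p = 0.23 and 0.26). Acadl (chr9:75783689-75822077) had 13674, 12618 and 10887 in Targretin livers, against 10518, 12530.4, 12058 and 12119 in diet livers by its brighter probe set, and these overlapped (log2 difference 0.07 ± 0.20, adjusted p = 0.88). Its second probe set had signals of 10.3 to 197.4 over all 43 arrays, failed the filter in each organ and was not tested.

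The trifunctional protein and Hadh completed the group. The first Hadha probe set (D16478_at; gene at chr6:31907801-31947434) had 11199, 13939 and 11308 in Targretin livers, against 7244, 6947, 7930.3 and 5725 in diet livers, and the second (D16478_g_at), of the same source sequence, had 9600.2, 13278 and 10127, against 6445, 5174, 6813 and 5581. Neither overlapped, and the log2 differences were 0.80 ± 0.16 and 0.86 ± 0.19 (adjusted p = 0.0031 and 0.0054). The third (X98225_s_at) had 4485, 3278 and 5341 in Targretin livers, against 2652, 3360.4, 3102 and 2551 in diet livers. Here the lowest Targretin value lay inside the diet range, and 0.56 ± 0.28 did not pass (adjusted p = 0.23). Hadhb (chr6:31873404-31907557), the thiolase subunit, had 6228, 7313 and 7782 in Targretin livers, against 4284, 5492, 4901 and 4392 in diet livers. It did not overlap and rose by 0.57 ± 0.14 (adjusted p = 0.013), which was not kept without Targretin array 2 (0.059) or 3 (0.063).

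Hadh (chr2:222462049-222504446) was dim: 213, 259.7 and 447 in Targretin livers, against 100.4, 73.5, 36.4 and 61.5 in diet livers. All Targretin values were above all diet values, with means of 307 ± 124 and 68.0 ± 26.6, and the log2 difference was 1.68 ± 0.43 (adjusted p = 0.016). It did not pass without Targretin array 3 (0.087), and with a pseudocount 4 times larger the difference was 1.03, still passing. In all, 9 of the 12 probe sets had Targretin values wholly above the diet values and 0 wholly below, where 10.6% and 14.1% of all probe sets tested did so; without Hadh they were 8 of 11.

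**Figure D1:**
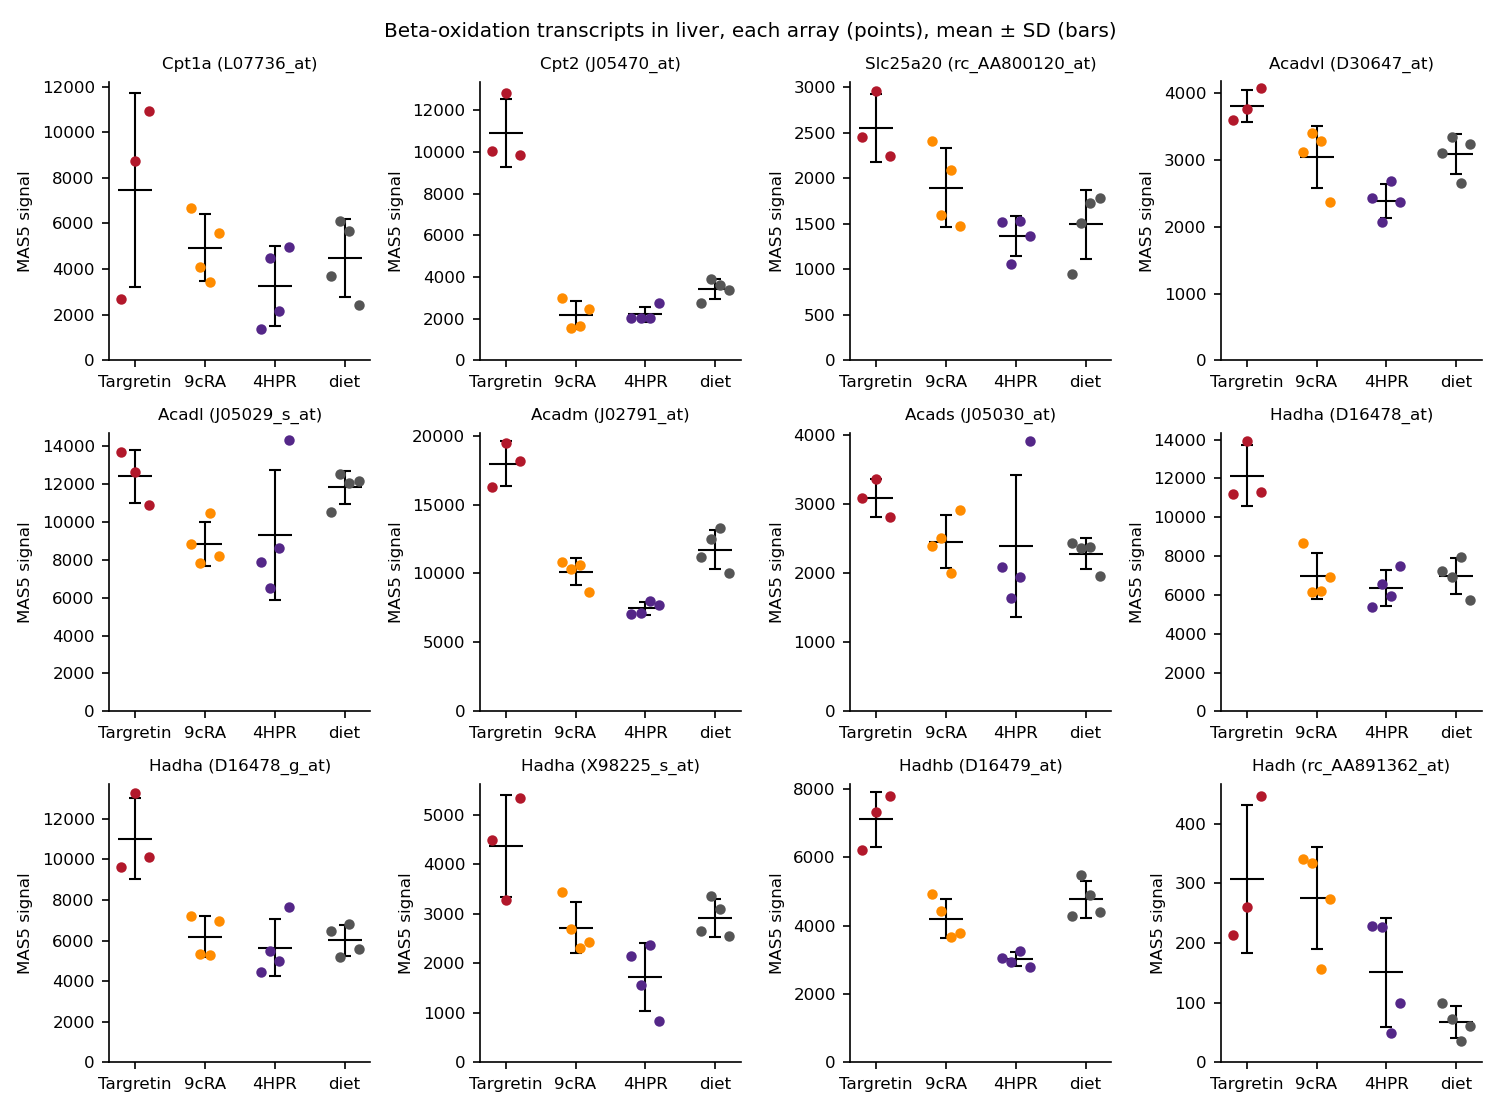
MAS5 signal (vertical axes, from 0) of the 12 probe sets tested in liver, by agent; each point is 1 array and bars give mean ± SD (n = 3 for Targretin, 4 for the other groups). The Targretin points of Cpt2 lie between 9844 and 12811, above every point of the other groups, while those of Cpt1a spread from 2704 to 10912.

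Of the 10 genes, 9 had a promoter window in the RefSeq table (250 bases before to 50 bases after the start, build GRCr8). They were searched on both strands for a pair of AGGTCA copies with any 1 base between, the direct repeat that Ppara and retinoid X receptor pairs are known to bind, for a looser pair of AGGNCA copies spaced alike, and for a single AGGTCA, which the first motif contains. The repeat was in 0 of the 9 windows and in 0.0538% of all 33469 windows, and the looser form in 0 and 0.415%. A single AGGTCA was in 2 of the 9 and in 16.2% of all: at 169 and 17 bases before the start of Acadvl, and on the opposite strand 43 bases past the start of Hadhb. The Acadvl copy 17 bases before the start is followed, after 1 base, by TGGTCA, which differs from AGGTCA in its first base only. Neither searched pair allows that base to differ, so such near matches were not counted in any window. Starts here are those used for the windows and can differ from the ends of the gene intervals given above. The Cpt2 window lies wholly inside the Cpt2 interval, so bases beyond that interval were not searched for Cpt2. The windows of 3 genes are shown: Cpt2, Acadvl, with its matches in capitals, and Hadha. Cpt2 rose most with Targretin in liver among the members with a strong signal, and its window holds no match. Hadha, by 2 of its 3 probe sets, and Hadhb rose with Targretin in liver. In Targretin lungs and mammary glands the Hadhb mean was below diet (ratios 0.72 and 0.68), while the mean of each Hadha probe set was above diet. These genes lie head to head on opposite strands, and the starts used for their windows are 301 bases apart. The capitals in the Hadha window mark the 200 bases (chr6:31907551-31907750) that the Hadhb window also covers.
Cpt2, chr5:127910769-127911068, minus strand: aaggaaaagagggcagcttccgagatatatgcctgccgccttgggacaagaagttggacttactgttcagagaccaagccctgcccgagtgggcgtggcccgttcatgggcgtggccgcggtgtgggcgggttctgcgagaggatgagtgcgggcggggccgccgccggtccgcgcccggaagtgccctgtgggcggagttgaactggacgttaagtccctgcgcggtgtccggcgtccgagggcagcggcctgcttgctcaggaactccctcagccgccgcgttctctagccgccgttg
Acadvl, chr10:55236656-55236955, minus strand: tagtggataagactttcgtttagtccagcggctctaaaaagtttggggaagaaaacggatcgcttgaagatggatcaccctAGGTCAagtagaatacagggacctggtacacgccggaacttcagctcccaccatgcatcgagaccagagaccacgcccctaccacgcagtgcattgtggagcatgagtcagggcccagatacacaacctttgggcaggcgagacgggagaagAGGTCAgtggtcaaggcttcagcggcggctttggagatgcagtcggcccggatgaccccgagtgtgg
Hadha, chr6:31907551-31907850, plus strand: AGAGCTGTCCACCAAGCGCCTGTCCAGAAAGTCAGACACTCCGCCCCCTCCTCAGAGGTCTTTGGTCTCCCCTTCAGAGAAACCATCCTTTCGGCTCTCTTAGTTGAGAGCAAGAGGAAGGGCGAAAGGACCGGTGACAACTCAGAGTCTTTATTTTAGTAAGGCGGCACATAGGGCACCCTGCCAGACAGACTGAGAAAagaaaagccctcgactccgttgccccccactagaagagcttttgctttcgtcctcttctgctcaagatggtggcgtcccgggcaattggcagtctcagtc

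Under 9cRA most of the pathway overlapped the diet livers. Against diet, 1 of the 12 probe sets was higher and 0 lower, where 2.55% of all probe sets tested were higher and 2.6% lower; 3 members had an unadjusted p under 0.05. The one that passed was Hadh, with 341, 335, 157 and 274 in 9cRA livers, against 100.4, 73.5, 36.4 and 61.5 in diet livers. The values did not overlap, and the log2 difference was 1.55 ± 0.40 (adjusted p = 0.029), or 0.94 with a pseudocount 4 times larger. Since Hadh was tested only through its signals in treated livers, and all of its diet values were under the 40th percentile, this difference depends on the pseudocount. Without Hadh 0 of 11 probe sets passed by limma, with 2 at an unadjusted p under 0.05. The call did not pass without 9cRA array 1, 2 or 4 or diet array 2, 3 or 4 (adjusted p = 0.054 to 0.084).

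Cpt2, which rose most with Targretin among the members with a strong signal, had 2994, 1554, 1672 and 2469 in 9cRA livers, against 2751, 3892, 3634 and 3388 in diet livers. Only 9cRA array 1 reached into the diet range, and the log2 difference of -0.68 ± 0.20 fell just short (adjusted p = 0.051). It passed without 9cRA array 1 (-0.85, adjusted p = 0.017) and without 4HPR array 4, which enters the shared estimate of the spread (adjusted p = 0.028). Acadl had 8799, 7841, 10434 and 8214 in 9cRA livers, against 10518, 12530.4, 12058 and 12119 in diet livers, all of its 9cRA values below all diet values, but -0.42 ± 0.18 did not pass (adjusted p = 0.21); it passed without 4HPR array 4 (adjusted p = 0.042). Hadh and Acadl were the only probe sets whose values lay wholly above or wholly below the diet values, 1 each way, where 6.59% and 8.09% of all did.

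The trifunctional protein was near its diet level, with log2 differences of 0.00, 0.04 and -0.11 for Hadha and -0.18 for Hadhb. For the first of these the 95% interval was -0.31 to 0.31. Acadm had 10814, 10356, 10644 and 8689.5 in 9cRA livers, against 11183, 12468, 13281 and 10015 in diet livers (log2 difference -0.21 ± 0.12, adjusted p = 0.37). Slc25a20 had 2412, 1595, 2095 and 1479.8 in 9cRA livers, against 945, 1511, 1732 and 1778 in diet livers, overlapping, with a log2 difference of 0.35 ± 0.21 (adjusted p = 0.39). Cpt1a, Acadvl and Acads had log2 differences of 0.18, -0.03 and 0.10, and none passed (adjusted p = 0.89, 0.95 and 0.87). The median over the 12 probe sets was -0.01, the same as over all probe sets tested. The hepatocyte sum was 433630 to 523432 in 9cRA livers, wholly above the 322686 to 385856 in diet livers, and the sum of 12 cardiac muscle genes was 2388 to 3054, against 2068 to 2364. The part of these transcripts in the 9cRA values was not tested. With 4HPR 0 of 11 marker lists lay wholly apart from diet, where 4% of all probe sets tested lay wholly above and 8.02% wholly below.

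Under 4HPR the medium-chain dehydrogenase and the thiolase subunit of the trifunctional protein fell. These were 2 of the 12 probe sets, with 0 higher, where 1.6% of all probe sets tested were lower and 1.19% higher; 6 members had an unadjusted p under 0.05. Acadm had 7062, 7132, 8002 and 7708 in 4HPR livers, against 11183, 12468, 13281 and 10015 in diet livers. No 4HPR liver reached the diet range, the means were 7476 ± 455 and 11737 ± 1437 (SD, n = 4 each), and Acadm fell by 0.64 ± 0.12 on the log2 scale (adjusted p = 0.0079). Hadhb had 3045, 2951, 3273 and 2785 in 4HPR livers, against 4284, 5492, 4901 and 4392 in diet livers. These did not overlap either, the means being 3014 ± 204 and 4767 ± 553, and it fell by 0.65 ± 0.13 (adjusted p = 0.012). Both passed under each of 15 other settings, at -0.72 to -0.58 for Acadm and -0.70 to -0.58 for Hadhb.

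Other members were below diet on 3 of 4 arrays, with 4HPR array 4 apart. Acadl had 7850.5, 6496, 8617 and 14277 in 4HPR livers, against 10518, 12530.4, 12058 and 12119 in diet livers, and Cpt2 had 2025, 2045, 2039.5 and 2759.6, against 2751, 3892, 3634 and 3388. For both genes array 4 was the highest of the 4HPR livers, and the log2 differences of -0.40 ± 0.18 and -0.62 ± 0.20 did not pass (adjusted p = 0.25 and 0.1). Without that array, 4 of 12 probe sets passed as lower, Acadl at -0.63 (adjusted p = 0.013) and Cpt2 at -0.72 (0.045) among them. On array 4 the third Hadha probe set was instead the lowest: 2149.5, 1568, 2372 and 836 in 4HPR livers, against 2652, 3360.4, 3102 and 2551 in diet livers, without overlap (log2 difference -0.83 ± 0.26, adjusted p = 0.090). The other 2 Hadha probe sets had differences of -0.14 and -0.11 and were not apart from diet (adjusted p = 0.67 and 0.78), so the 3 probe sets of this gene did not give 1 answer.

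Acadvl had 2426, 2069, 2689 and 2374 in 4HPR livers, against 3101, 3344, 2658 and 3234 in diet livers, overlapping at 1 array of each group (log2 difference -0.36 ± 0.14, adjusted p = 0.17). Cpt1a, Slc25a20, Acads and Hadh had log2 differences of -0.55, -0.10, -0.01 and 0.72, none passing. Acadm, Hadhb and the third Hadha probe set lay wholly below diet and 0 members wholly above, where 8.02% and 4% of all did. The median over the 12 was -0.38, beside -0.10 over all probe sets tested; quantile normalization moved the median of all to -0.003, and Acadm and Hadhb still passed. The 3 sets of liver differences share the same 4 diet arrays.

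The agents were also set against each other in liver, as given, at their different doses and routes. Targretin livers exceeded 9cRA livers in 5 of 12 member probe sets and 4HPR livers in 8 of 12, with 0 lower in either, where 2.87% and 4.17% of all probe sets tested were higher and 2.87% and 3.72% lower. Cpt2, with the signals given above, was 2.35 ± 0.21 higher on the log2 scale in Targretin than in 9cRA livers (adjusted p = 1.4e-06) and 2.28 ± 0.21 higher than in 4HPR livers (adjusted p = 1.8e-06). Acadm was 0.83 ± 0.13 and 1.26 ± 0.13 higher (adjusted p = 4.2e-04 and 5.0e-06) and Hadhb 0.76 ± 0.14 and 1.22 ± 0.14 higher (adjusted p = 0.0025 and 1.9e-05). The first and second Hadha probe sets passed in both pairs, at 0.80 and 0.83 against 9cRA and 0.94 and 0.97 against 4HPR; without Targretin array 2 the second no longer passed against 9cRA (adjusted p = 0.086). Without 4HPR array 4, Acadl (0.49, adjusted p = 0.031) and the third Hadha probe set (0.66, adjusted p = 0.044) also passed against 9cRA, making 7 of 12.

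Against 4HPR, the third Hadha probe set (1.39 ± 0.28, adjusted p = 0.0036), Acadvl (0.67 ± 0.15, adjusted p = 0.0095) and Slc25a20 (0.89 ± 0.23, adjusted p = 0.022) also passed. Slc25a20 did not without 4HPR array 2 (0.065), Targretin array 1 (0.059) or 2 (0.11), or with same-numbered arrays as a block (0.051). Acadl and Acads, which did not pass (adjusted p = 0.17 and 0.26), did so without 4HPR array 4 at 0.70 each (0.0045 and 0.0097). Between 9cRA and 4HPR, the 2 agents given in the diet, 0 of 12 member probe sets passed by limma and 5 had an unadjusted p under 0.05, where 0.0165% of all were higher and 0.148% lower in 9cRA. The clearest of these were Acadm at 0.43 ± 0.12 (95% interval 0.18 to 0.68, adjusted p = 0.19) and Hadhb at 0.47 ± 0.13 (95% interval 0.19 to 0.75, adjusted p = 0.19), both with the 9cRA livers higher. For Cpt2 the difference was -0.07, with an interval of -0.48 to 0.34.

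**Figure D2:**
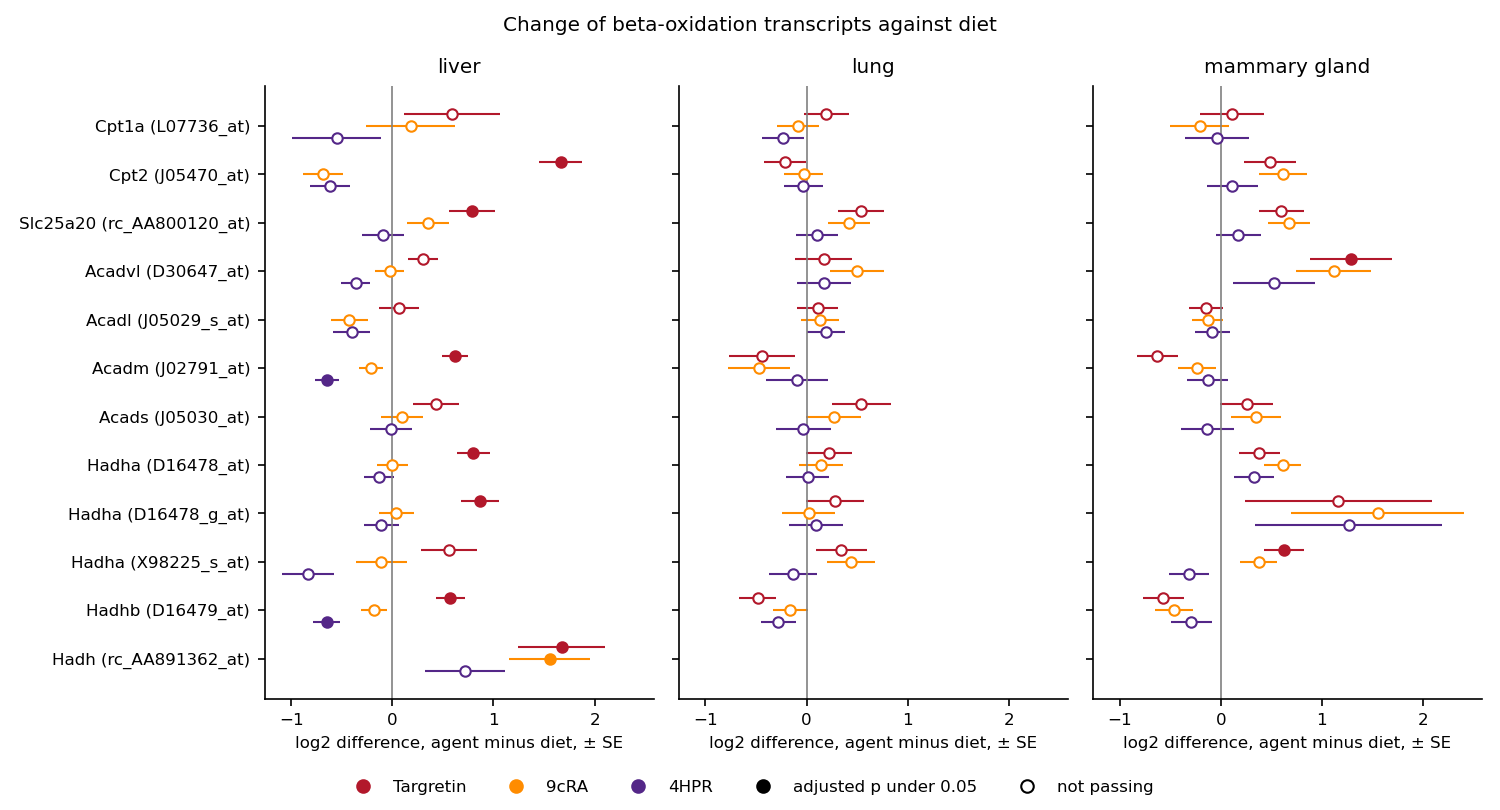
Log2 difference between agent and diet (horizontal axis, ± SE) of each member probe set in liver, lung and mammary gland; filled points passed at an adjusted p under 0.05 and open points did not. Filled points above 0 are mostly Targretin in liver, with Cpt2 at 1.66, and no point is filled in lung. Hadh, at 1.68 with Targretin in liver, was tested only through its signals in treated livers. Its difference was 1.03 with a pseudocount 4 times larger.

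Genes around the pathway in liver were described from lists of its partners. A gene with several probe sets was counted by the 1 with the smallest p, so gene counts are not comparable with shares of probe sets. By probe set, 4 of 14 other mitochondrial and 7 of 17 peroxisomal ones were higher in Targretin than in diet livers. So were 2 of 4 for ketone body enzymes, 4 of 12 for receptors and regulators and 0 of 9 for the TCA cycle. In each list 0 were lower, where 4.89% of all were higher and 6.28% lower. Of 8 tested genes for other mitochondrial beta-oxidation enzymes, 3 were higher and 0 lower in Targretin livers than in diet livers: Eci1, an isomerase for unsaturated chains (1.31 ± 0.22, adjusted p = 7.0e-04), Acaa2, the medium-chain thiolase (0.97 ± 0.17, adjusted p = 0.0012), and Hsd17b10, a 3-hydroxyacyl-CoA dehydrogenase (0.53 ± 0.16, adjusted p = 0.037). The median of that list was 0.18. Of 2 tested ketone body genes, Acat1, the acetoacetyl-CoA thiolase, rose (1.21 ± 0.15, adjusted p = 3.5e-05) and Bdh1 did not pass. Peroxisomal beta-oxidation, which shortens very long chains, had 5 of 10 genes higher and 0 lower, among them Acaa1b at 4.39 ± 0.31, Ehhadh at 2.72 ± 0.24, Crot, which passes shortened chains on as carnitine esters, at 1.64 ± 0.24 and Decr2 at 1.33 ± 0.19 (adjusted p = 2.2e-04 or less for each).

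Of 9 tested receptors and regulators, 3 were higher in Targretin livers. These were Acacb (2.91 ± 0.40, adjusted p = 1.2e-04) and Acaca (1.78 ± 0.41, adjusted p = 0.0078), the carboxylases that make malonyl-CoA, the known inhibitor of Cpt1a, and Rxrg, a retinoid X receptor (1.96 ± 0.38, adjusted p = 0.0024). TCA cycle genes were 0 of 6 by limma, with 0 at an unadjusted p under 0.05. The median TCA probe set was at 0.02, beside 0.61 for the members. The dehydrogenases of branched chains were 0 of 2, 3 probe sets having an unadjusted p under 0.05 (Ivd 0.51, adjusted p = 0.060), and the carnitine transporter Slc22a5 was at 0.02.

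With 9cRA the same lists gave 1 mitochondrial gene lower, Decr1, the 2,4-dienoyl-CoA reductase (-0.76 ± 0.20, adjusted p = 0.036), and Slc22a5 lower (-1.23 ± 0.32, adjusted p = 0.031). Ivd was higher (0.67 ± 0.16, adjusted p = 0.017), as were Acacb (1.48 ± 0.37, adjusted p = 0.027) and 3 of 10 peroxisomal genes, Crot at 1.23 ± 0.23, Abcd3 at 2.06 ± 0.46 and Decr2 at 0.52 ± 0.15. With 4HPR, Eci1 (-1.13 ± 0.23, adjusted p = 0.012) and Decr1 (-0.99 ± 0.20, adjusted p = 0.013) were lower, beside Acadm and Hadhb, and so were the ketone body enzyme Bdh1 (-0.67 ± 0.13, adjusted p = 0.010) and Ech1, an isomerase of mitochondria and peroxisomes (-0.94 ± 0.24, adjusted p = 0.047). TCA genes were 0 of 6 for both agents, each with 1 probe set at an unadjusted p under 0.05. By probe set, 4 of 17 peroxisomal ones were higher and 1 of 14 other mitochondrial ones lower with 9cRA. Of all probe sets tested, 2.55% were higher and 2.6% lower. With 4HPR, 2 of 14 other mitochondrial and 1 of 17 peroxisomal ones were lower, where 1.6% of all were lower and 1.19% higher. The lists were chosen with earlier results of these data known and are given as a description.

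**Figure D3:**
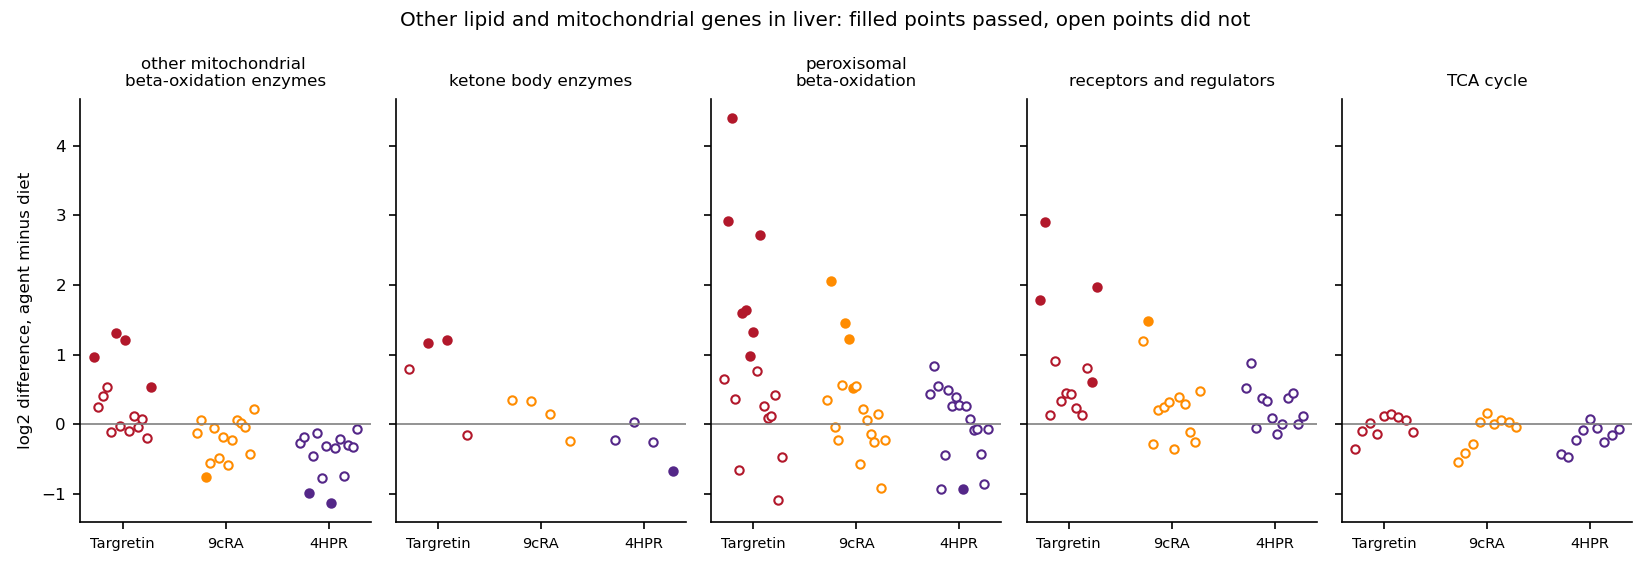
Log2 difference between agent and diet in liver (vertical axis) for the probe sets of 5 partner lists; each point is 1 probe set, filled where it passed and open where it did not. The peroxisomal points of Targretin reach 4.39, and no TCA cycle point is filled.

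In lung no member passed with any agent by limma, of 11 probe sets tested; Hadh and the dimmer Acadl probe set were below the filter. Unadjusted p-values under 0.05 numbered 2 with Targretin, 0 with 9cRA and 0 with 4HPR. Of all 5932 probe sets tested, 1.38% were higher and 1.01% lower with Targretin, and 0% either way with 9cRA and with 4HPR. These shares were not stable. The 142 calls with Targretin became 0 without diet lung array 4, 1 without diet lung array 3, 20 without Targretin array 1, 299 without diet lung array 2 and 443 without Targretin array 3, and 0 with same-numbered arrays as a block or with only the groups compared. Without diet lung array 2 there were 38 calls with 9cRA and 80 with 4HPR. Cpt2, the member that rose most firmly in liver, had 784, 864 and 729 in Targretin lungs, against 903, 954 and 913 in diet lungs. All Targretin values lay below the diet values, at a log2 difference of -0.21 ± 0.21 (adjusted p = 0.54, 95% interval -0.66 to 0.23).

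Hadhb had 3396, 2297 and 3199.7 in Targretin lungs, against 3499.7, 4590.5 and 4276 in diet lungs, without overlap (log2 difference -0.48 ± 0.18, adjusted p = 0.13). Slc25a20 had 786, 1059.9 and 1066 in Targretin lungs, against 749.9, 604 and 604 in diet lungs, all higher (log2 difference 0.54 ± 0.22, adjusted p = 0.17). These were 1 probe set wholly above and 2 wholly below diet, where 14.3% and 9.25% of all were. Acadm had 1905, 1526 and 4109.7 in Targretin lungs, against 2882, 3126 and 3378 in diet lungs, spread from below to above the diet range (log2 difference -0.44 ± 0.33, adjusted p = 0.42). Targretin lung array 2 also had the highest sum of 12 cardiac muscle genes (10756, against 3171 to 4228 in diet lungs). It had the group's highest value of Cpt1a, Cpt2, Acads and 2 Hadha probe sets. Its values of Acadvl, Acadm, Hadhb and the third Hadha probe set were the group's lowest. The part of the cardiac transcripts in these values was not tested.

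With 9cRA, Acadm had 2535, 2485, 1674 and 2386 in 9cRA lungs, against 2882, 3126 and 3378 in diet lungs, all lower (log2 difference -0.47 ± 0.31, adjusted p = 0.58); it was the 1 probe set wholly below diet, with 0 wholly above, where 5.6% and 8.07% of all were. With 4HPR no member lay wholly on 1 side of diet, where 3.03% of all lay below and 2.51% above, and the member log2 differences ran between -0.28 for Hadhb and 0.19 for Acadl. The hepatocyte sum was 4997 to 6740 in Targretin lungs, 9744 to 14270 in 9cRA lungs, 17685 to 99572 in 4HPR lungs and 2855 to 30969 in diet lungs. The sum of 5 smooth muscle genes was 29266 to 36169 in Targretin lungs, against 16028 to 27513 in diet lungs. None of the 7 hepatocyte genes was at 0, and the part of these transcripts in the lung values was not tested.

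In mammary gland Targretin was accompanied by a mixed picture: Acadvl and 1 Hadha probe set higher, Acadm and Hadhb below diet without passing. Of 11 probe sets tested 2 were called higher and 0 lower, where 7.97% of all 6051 were higher and 5.19% lower; 5 members had an unadjusted p under 0.05. Acadvl had 780.1, 684 and 754 in Targretin mammary glands, against 593, 147, 282 and 233 in diet mammary glands. All 3 Targretin values exceeded the diet values, of which array 1 was the highest, and the log2 difference was 1.29 ± 0.40 (adjusted p = 0.047), or 1.02 with a pseudocount 4 times larger, 2 of the 4 diet values being under the 40th percentile. The third Hadha probe set had 1127, 917 and 1116 in Targretin mammary glands, against 689, 686, 704 and 586 in diet mammary glands, without overlap (log2 difference 0.63 ± 0.20, adjusted p = 0.0497). Neither call was firm. Acadvl passed in the fit without diet array 1 and in no other fit that left out an array of these groups (adjusted p = 0.082 to 0.13), and Hadha in none (0.055 to 0.13).

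Acadm had 1684, 1968 and 2753 in Targretin mammary glands, against 3535, 3784, 2683 and 3114 in diet mammary glands, where Targretin array 3 reached into the diet range. Its log2 difference of -0.63 ± 0.20 just missed (adjusted p = 0.052), and without Targretin array 3 it was -0.82 and passed (0.033), then the only member to do so. Hadhb had 6003, 3979 and 6723 in Targretin mammary glands, against 7333, 9129, 9275 and 6867 in diet mammary glands, all lower (log2 difference -0.57 ± 0.20, adjusted p = 0.074). Slc25a20 had 1412, 1064 and 1228 in Targretin mammary glands, against 846, 525, 894 and 1005 in diet mammary glands, all higher (log2 difference 0.60 ± 0.22, adjusted p = 0.082). In all, 3 probe sets lay wholly above and 1 wholly below diet, where 17.2% and 10% of all did.

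Of 11 marker lists, 1 lay wholly below diet with Targretin in this organ, the hepatocyte list, and 0 wholly above. Of all probe sets tested, 10% lay wholly below and 17.2% wholly above. The sum of the 7 hepatocyte genes was 2320 to 5899 in Targretin mammary glands, 24925 to 75945 in 9cRA, 43199 to 88061 in 4HPR and 46455 to 86899 in diet mammary glands, none of the genes being at 0. That of 7 adipocyte genes was 132389 to 199170 in Targretin, 188856 to 314040 in 9cRA, 193032 to 209716 in 4HPR and 190549 to 270354 in diet mammary glands. On Targretin array 3 the skeletal muscle sum was 73704, where the other mammary arrays had 2058 to 4356. On this array Cpt1a, Cpt2, Acadm, Hadhb and the first Hadha probe set had the highest values of the Targretin group. The part of these transcripts in the mammary results was not tested.

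Of the partner lists in mammary gland, 4 of 8 genes for other mitochondrial beta-oxidation enzymes were lower and 0 higher with Targretin: Etfdh (-0.89, adjusted p = 0.018) and Etfa (-0.56, 0.025), which pass electrons on from the acyl-CoA dehydrogenases, Eci1 (-0.79, 0.028) and Decr1 (-0.59, 0.031). By probe set, 4 of 15 were lower and 0 higher, where 5.19% of all tested were lower and 7.97% higher. Eci1 was higher in Targretin livers and lower in Targretin mammary glands, each against diet. The hepatocyte sum was 2320 to 5899 in Targretin and 46455 to 86899 in diet mammary glands, and its part in these mammary differences was not tested. The TCA cycle gene Sdha was lower (-0.72, 0.026) and Acaca higher (1.98, 0.023). In lung 0 of 8 passed by limma, with 3 probe sets at an unadjusted p under 0.05.

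With 9cRA 0 of 11 probe sets passed by limma in mammary gland and 5 had an unadjusted p under 0.05, where 0% of all were called either way. Slc25a20 had 1263, 1528, 1109 and 1315 in 9cRA mammary glands, against 846, 525, 894 and 1005 in diet mammary glands, all higher (log2 difference 0.68 ± 0.21, adjusted p = 0.15). Acadvl was at 1.12 ± 0.37 (adjusted p = 0.16), the first Hadha probe set at 0.61 ± 0.19 (0.15), Cpt2 at 0.61 ± 0.24 (0.2) and Hadhb at -0.46 ± 0.19 (0.21). Acadvl and that Hadha probe set passed without diet array 1 (adjusted p = 0.046 and 0.038). Slc25a20 and the third Hadha probe set lay wholly above diet and Hadhb wholly below, where 3.59% and 2.93% of all did. With 4HPR 0 of 11 passed by limma, 0 had an unadjusted p under 0.05 and 0 lay wholly on 1 side of diet, where 0% of all were called and 1.88% and 2.99% lay wholly above and wholly below. The second Hadha probe set had 8086, 7348, 6794 and 146 in diet mammary glands, the last far below the rest, and its differences to diet (1.16 to 1.55) carried standard errors of 0.86 to 0.92.

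**Figure D4:**
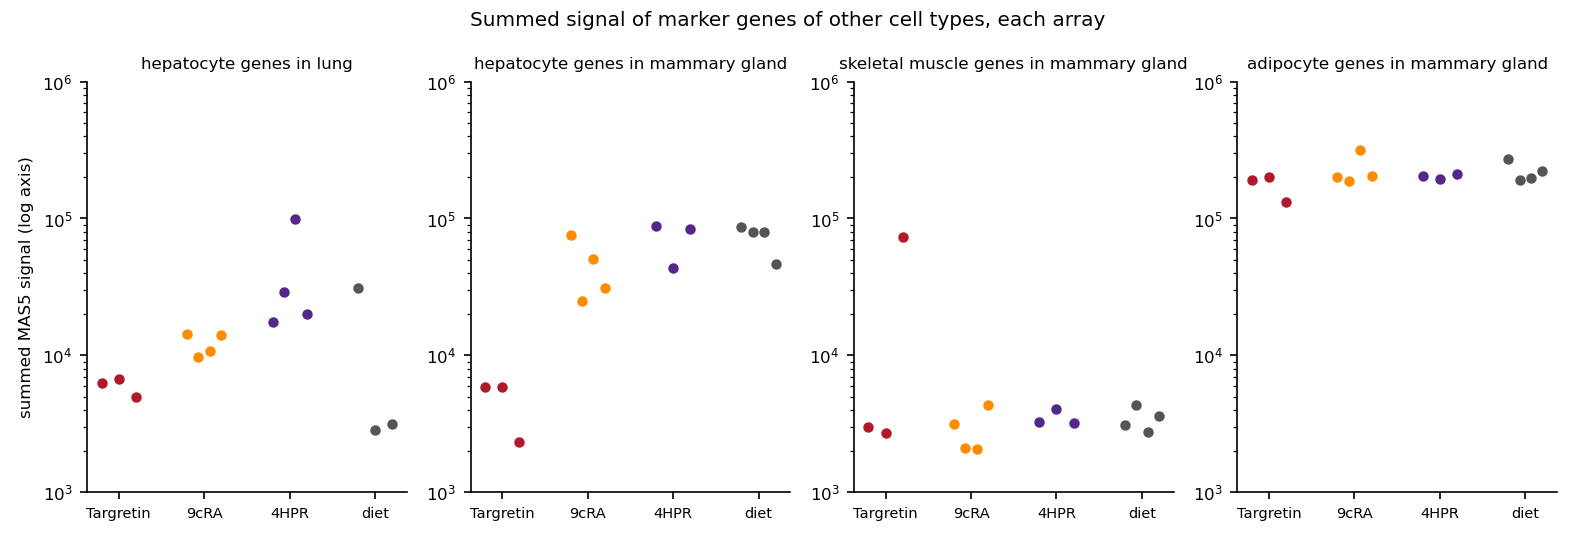
Summed MAS5 signal (log axis) of hepatocyte genes in lung and mammary gland and of skeletal muscle and adipocyte genes in mammary gland, by agent, 1 point per array. Hepatocyte sums of Targretin mammary glands stay at or below 5899, under every diet value, and 1 Targretin mammary array stands at 73704 for skeletal muscle genes.

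Whether the change with an agent differed between organs was tested directly, on the 11 member probe sets above the filter in each organ. With Targretin 3 passed, Cpt2, Acadm and Hadhb, where 13.3% of all 5114 probe sets tested did. For Cpt2 the log2 difference to diet was 1.66 in liver, against 0.48 in mammary gland and -0.21 in lung (adjusted p of the difference between organs = 3.1e-04). For Acadm it was 0.62 in liver, against -0.63 in mammary gland and -0.44 in lung (adjusted p = 0.012), and for Hadhb 0.57, -0.57 and -0.48 in the same order (adjusted p = 0.0011). For Acadm and Hadhb the liver difference thus had the opposite sign to those of the other organs, none of which passed alone. All 3 passed under each of 26 other settings by limma. Among these was the fit without the 5 arrays that stand apart (adjusted p = 5.8e-04, 0.0055 and 2.9e-04 for Cpt2, Acadm and Hadhb). That fit kept the diet mammary arrays with hepatocyte sums of 46455 to 86899, whose part was not tested.

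With 9cRA 0 passed and 2 had an unadjusted p under 0.05, where 0.372% of all passed. Cpt2 was one of them, at -0.68 in liver, against 0.61 in mammary gland and -0.03 in lung (adjusted p = 0.062). It passed without 9cRA liver array 1 (0.035), 9cRA mammary array 3 (0.042) or 4 (0.046), diet mammary array 1 (0.028) or 4 (0.040), or diet lung array 2 (0.034), and with same-numbered arrays as a block (0.037). With 4HPR 0 passed and 1 had an unadjusted p under 0.05, again Cpt2, where 0% of all passed; without the arrays that stand apart Acadl passed (adjusted p = 0.046).

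The level of each member on diet alone was compared between organs, 1 probe set at a time, since signals of different probe sets are not comparable. Liver stood above lung at Slc25a20, Cpt2 and all 4 dehydrogenases. Of 12 probe sets, 7 were higher in diet liver than in diet lung and 0 lower, where 15.9% of all 6913 probe sets tested were higher and 37.9% lower. The largest was Acadl, at 10518, 12530.4, 12058 and 12119 in diet liver, against 2532, 1889 and 1824 in diet lung, 2.49 ± 0.18 on the log2 scale. Acadvl was 2.22 ± 0.30 higher, Acadm 1.89 ± 0.23, Cpt2 1.83 ± 0.22, Acads 1.31 ± 0.26, the third Hadha probe set 1.14 ± 0.25 and Slc25a20 1.11 ± 0.22 (adjusted p = 1.5e-04 or less for each). Cpt1a at 0.86 missed (adjusted p = 0.060), and passed without diet liver array 4 (0.019) or diet lung array 3 (0.049). Hadhb, at 0.21, did not pass (adjusted p = 0.3). The first and second Hadha probe sets and Hadh did not pass either. The first Hadha probe set had means of 6962 in diet liver and 5620 in diet lung, and the second 6003 and 4399. The median over all probe sets was -0.37 and that over the members 1.13; after quantile normalization these were -0.09 and 1.46.

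Mammary gland was lower than liver for most members, with Hadhb the exception. Of 12 probe sets, 1 was higher and 8 lower in diet mammary gland than in diet liver, where 33.1% of all were higher and 24.7% lower. Acadvl had 593, 147, 282 and 233 in diet mammary gland, against 3101, 3344, 2658 and 3234 in diet liver, -3.29 ± 0.28 on the log2 scale. As 2 of the 4 diet mammary values were under the 40th percentile of their arrays, the size is uncertain, and it was -2.87 with a pseudocount 4 times larger. The third Hadha probe set (-2.06), Acadm (-1.83), Acads (-1.54), Cpt2 (-1.27), Acadl (-0.95), Slc25a20 (-0.83) and the first Hadha probe set (-0.52) were also lower. The last of these did not pass without diet mammary array 2 (adjusted p = 0.056) or 3 (0.058). The second Hadha probe set, at 146 on diet mammary array 4, did not pass. Hadhb had 7333, 9129, 9275 and 6867 in diet mammary gland, against 4284, 5492, 4901 and 4392 in diet liver, all higher (0.76 ± 0.15, adjusted p = 5.2e-05). Cpt1a, at 4699.9, 5965, 6400.2 and 7143 in diet mammary gland, against 3709, 6123, 5664 and 2439.9 in diet liver, did not differ beyond its spread (0.50 ± 0.36, adjusted p = 0.24).

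Against lung, diet mammary gland had 4 members higher and 2 lower, where 15.8% of all were higher and 26.1% lower. Acadl (1.54 ± 0.18), Cpt1a (1.36 ± 0.39), Hadhb (0.97 ± 0.17) and Cpt2 (0.56 ± 0.22, adjusted p = 0.039) were higher, and Acadvl (-1.07 ± 0.30) and the third Hadha probe set (-0.92 ± 0.25) lower. Cpt2 was lost without any 1 of diet mammary arrays 1 and 4 and the 3 diet lung arrays (adjusted p = 0.070 to 0.13). The first and second Hadha probe sets did not pass, and the second was higher in mammary gland at 0.74 without diet mammary array 4 (0.0086). The hepatocyte sum of 46455 to 86899 in diet mammary gland, against 300465 to 526987 over all liver arrays, applies to these comparisons too, and its part in them was not tested.

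**Figure D5:**
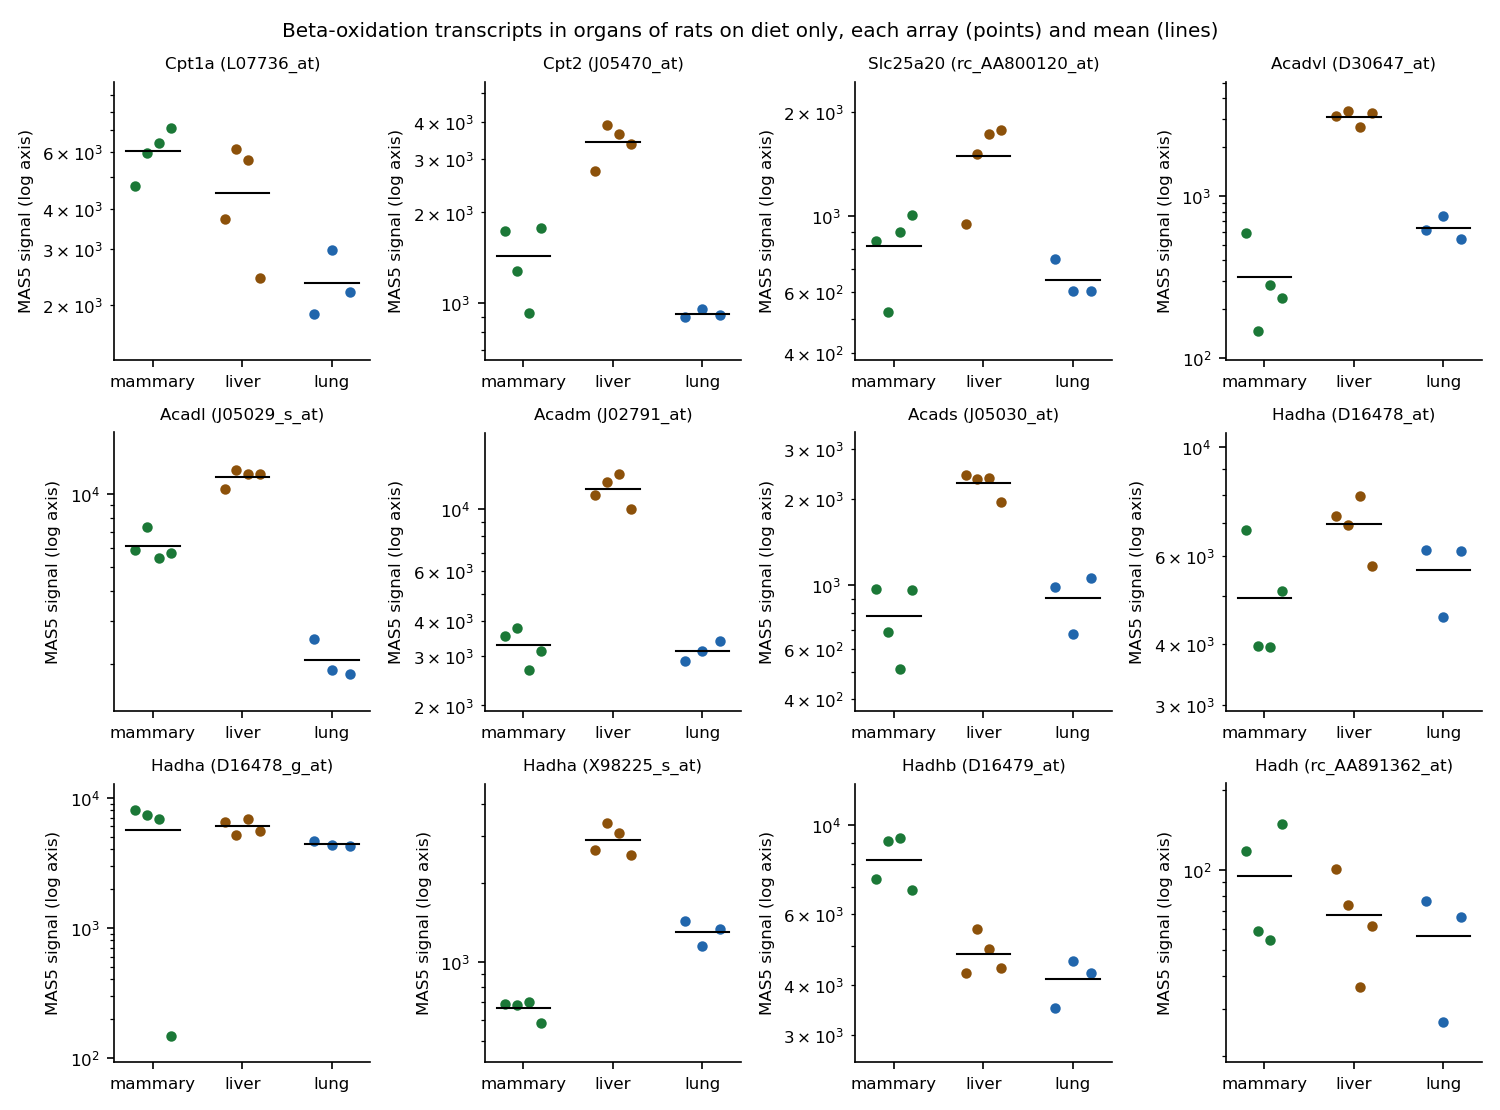
MAS5 signal (log axis) of the 12 probe sets in mammary gland, liver and lung of rats on diet only, each point 1 array and lines the mean (n = 4, 4 and 3). Acadvl falls lowest in mammary gland (147 to 593), Acadl is highest in liver (10518 to 12530), and Hadhb is highest in mammary gland (6867 to 9275).

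Across the 12 group means of log2 signal, the members followed their own median profile to different degrees. Slc25a20 was closest (Pearson r = 0.99), then Cpt2 (0.91), the first Hadha probe set (0.87) and Acads (0.85). Farthest were Cpt1a (0.53), the dimmer Acadl probe set (0.44) and Hadhb (0.25). Outside the members, of 5659 probe sets ranked, the profiles most like that median were those of Gpd1 (0.96), Pabpc4 (0.95), Acat1 (0.94), Hsd17b10 (0.94) and Pmpca (0.93). Each member probe set is part of the median that it is compared with, so its r is not comparable with that of an outside probe set. These are descriptions over 12 points that share organs and arrays.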

How the data were processed

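RNA of 43 samples was measured on rat Affymetrix arrays, 1 per sample. The authors deposited intensity values, MAS5 signal per probe set on a linear scale, per the submitters' processing notes; the version of MAS5 and its detection calls were not given in the sources used here. The 2% trimmed mean was 1501.78 to 1503.29 on each array, so no further scaling was applied. Of 8799 probe sets, 59 controls were left out. The platform annotation gave 7006 of the other 8740 a single symbol.

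Values were log2(signal + 38.3), the pseudocount being the 10th percentile of all values. Each organ was fitted with its 4 groups in limma 3.58.1 under R 4.3.3 (lmFit, eBayes with trend), with Benjamini-Hochberg adjustment over the probe sets tested (liver 6071, mammary gland 6051, lung 5932). Organ differences (moderated F, 5114 probe sets) and organ levels on diet (6913) came from 1 fit of all arrays. The members, the partner and marker lists and the tests were chosen with earlier results of these data known. Each member is named with every probe set. From a partner list up to 4 passing genes with the smallest p were named, or up to 2 as not passing, and the 5 profiles most like the members' median were ranked by Pearson r.

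Results were refitted without each array in turn, with array quality weights, with only the groups compared, with same-numbered arrays as a block, with a pseudocount 4 times larger, after quantile normalization and without the filter. Leaving out the 5 arrays that stand apart was chosen after seeing the data. Residuals of arrays with the same number had a median correlation of -0.0024 (liver), 0.013 (mammary gland), 0.025 (lung) and 0.060 (between organs), and no label names a shared animal or batch, so they were not paired. Figures were drawn with matplotlib 3.10.9 in Python 3.11.15.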

Additional observations from a re-analysis of the deposited data

Results flagged for a closer look

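Each member probe set was examined in each group of 4 arrays, giving 91 sets of 4 signals. In 7 of these sets, 1 array lay apart from the others by more than 0.829 of the range. Chance flags about 1 in 20 independent sets, here 4.5, but these sets share arrays and some share a gene. On 4HPR liver array 4, Cpt2 was 2760, against 2025 to 2045 on the other 3 arrays, a gap of 0.973 of the range. On 4HPR lung array 4, Hadhb was 4089, against 3128 to 3183 (0.943), and Acadl 2939, against 2147 to 2269 (0.846). On 4HPR liver array 3 the dimmer Acadl probe set, not tested, was 189, against 23.3 to 45.7 (0.865). On diet liver array 4, Acads was 1953, against 2361 to 2437 (0.843). On diet mammary array 4, the second Hadha probe set was 146, against 6794 to 8086 (0.837), and the third 587, against 686 to 704 (0.851).

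The change with Targretin against diet differed between organs for 3 members by the moderated F test in limma. These were Cpt2 (1.66 in liver, against 0.48 in mammary gland and -0.21 in lung; adjusted p = 0.00031), Hadhb (0.57, -0.57 and -0.48 in the same order; adjusted p = 0.0011) and Acadm (0.62, -0.63 and -0.44; adjusted p = 0.012). Against diet, the smooth muscle sum was wholly higher in Targretin lungs and the hepatocyte sum wholly lower in Targretin mammary glands. Adipocyte sums overlapped diet in both organs, and the skeletal muscle sum was high on Targretin mammary array 3 only. The part of these transcripts in the organ differences was not tested.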

How the results depend on the processing

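Of 50 member calls, 40 were kept under every alternative, 52 of 748 refits lost a call and 0 reversed one; the cause of a lost call was not tested. Members passing numbered 7 for Targretin in liver (5 to 7 over the fits that left out 1 array), 5 for Targretin against 9cRA (4 to 5, and 7 without the arrays that stand apart), 8 for Targretin against 4HPR (7 to 10), 3 for the organ differences with Targretin (3 to 4), 7 for diet liver against lung (7 to 8), 6 for diet mammary gland against lung (5 to 6) and 9 for diet mammary gland against liver (9 to 10). For 9cRA in liver 1 passed (0 to 1), with 2 under the larger pseudocount, 2 under array quality weights, 2 with only the groups compared in the fit and 3 without the arrays that stand apart. For 4HPR in liver 2 passed (2 to 4), with 4 under weights and 4 without the arrays that stand apart. In lung 0 passed for each agent (0 to 0), with 2 for 9cRA and 1 for 4HPR under weights. For Targretin in mammary gland 2 passed (0 to 1), with 1 after quantile normalization, 0 without the filter, 4 under weights, 0 with only the groups compared and 1 without the arrays that stand apart; for 9cRA there 0 passed (0 to 2), for 4HPR 0 (0 to 0), and for 9cRA against 4HPR in liver 0 (0 to 0). For the organ differences with 9cRA 0 passed (0 to 1), with 2 under weights and 1 without the arrays that stand apart, and with 4HPR 0 (0 to 0), with 1 under each. With same-numbered arrays as a block 6 passed for Targretin in liver, 1 for the organ differences with 9cRA and 0 for Targretin in mammary gland; besides Slc25a20, Acadvl (1.14, adjusted p = 0.066) and the third Hadha probe set (0.60, 0.090) in Targretin mammary gland were lost, and Cpt1a in diet liver against lung was gained (0.87, 0.045), while no other call changed. The member median for diet liver against lung was 1.13, or 1.46 after quantile normalization. Fits that left a group with few arrays assume that they vary like the others, and signal near background limits Hadh, the second Acadl probe set and Acadvl in mammary gland. Counts over all probe sets tested moved more: over the fits that left out 1 array, liver calls numbered 419 to 584 with Targretin (678 with all arrays), 204 to 276 with 9cRA (313) and 92 to 280 with 4HPR (169), lung calls 0 to 443 (142), 0 to 38 (0) and 0 to 80 (0), and mammary gland calls 338 to 1057 (796), 0 to 147 (0) and 0 to 0 (0). In liver these counts moved by over 1.5 times for Targretin without Targretin array 2 (419), for 9cRA without diet array 1 (204) or 3 (207), and for 4HPR without 4HPR array 1 (103) or 4 (280) or diet array 2 (92), 3 (100) or 4 (106). In mammary gland they did so for Targretin without Targretin array 1 (515), 2 (338) or 3 (409) or diet array 2 (375) or 3 (368), and for 9cRA without diet array 1 (147) or 9cRA array 3 (1) or 4 (2). Array quality weights gave 696, 964 and 401 calls in lung for Targretin, 9cRA and 4HPR.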
